A study of Drosophila melanogaster with 9 samples.

Results

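STAT supercompetitors and Myc supercompetitors were set directly against each other, in a fit that also held the gfp control libraries. The comparison takes the 3 hop libraries against the 3 Myc libraries, 6 of the 9 libraries of the series, and every gene with enough counts to be tested, which was 12741 of the 16492 genes in the raw table. The hop cells carried *dpp-gal4* and *uas-gfp* over *uas-hop*, the Myc cells carried the same driver and reporter over *uas-myc*, and the gfp control cells carried the driver and reporter over a chromosome with neither transgene. Every library came from GFP-positive cells isolated by sorting of wing discs from wandering larvae of the third instar, with at least 60 discs per genotype, so each value averages over many animals and over all cells that express the *dpp* driver. Totals of the raw table were 5510922 to 6104490 counts in hop, 5110634 to 5949072 in Myc and 5265349 to 5835854 in gfp. Nothing in the labels says whether the libraries of a genotype came from separate crosses, so p-values measure the spread between these libraries, which may be technical.

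In *Drosophila*, JAK/STAT signaling runs from Unpaired ligands through the receptor Domeless and the Janus kinase Hopscotch, encoded by *hop*, to the transcription factor Stat92E, while Socs36E feeds back to dampen the pathway. Myc, encoded by *dm*, is a transcription factor that promotes growth, mainly by raising ribosome production and metabolism. In the wing disc, cells with more of either activity than their neighbors can become supercompetitors, which survive and expand while the neighboring wild-type cells die. Both kinds of winner share this behavior, and the direct comparison asks in which transcripts they differ.

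With thresholds of 0.05 on the adjusted p and 1.5 on the fold change, 333 genes were higher in hop than in Myc (2.61% of the genes tested) and 373 were lower (2.93%). Of the higher genes 179 differed at least 2-fold and 23 at least 4-fold, and of the lower genes 242 and 78 did. At an adjusted p under 0.05 alone, the rule used here for single genes and for members of gene lists, 425 genes were higher (3.34%) and 413 were lower (3.24%). These shares of all genes are the ones to set beside each count of list members below. An unadjusted p under 0.05 was reached by 3152 genes. The hop and Myc libraries did not overlap for 24.6% of all genes tested, and they did not overlap for 324 of the 333 higher and 346 of the 373 lower genes. The median log2 fold change over all genes tested was -0.02.

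**Figure D1:**
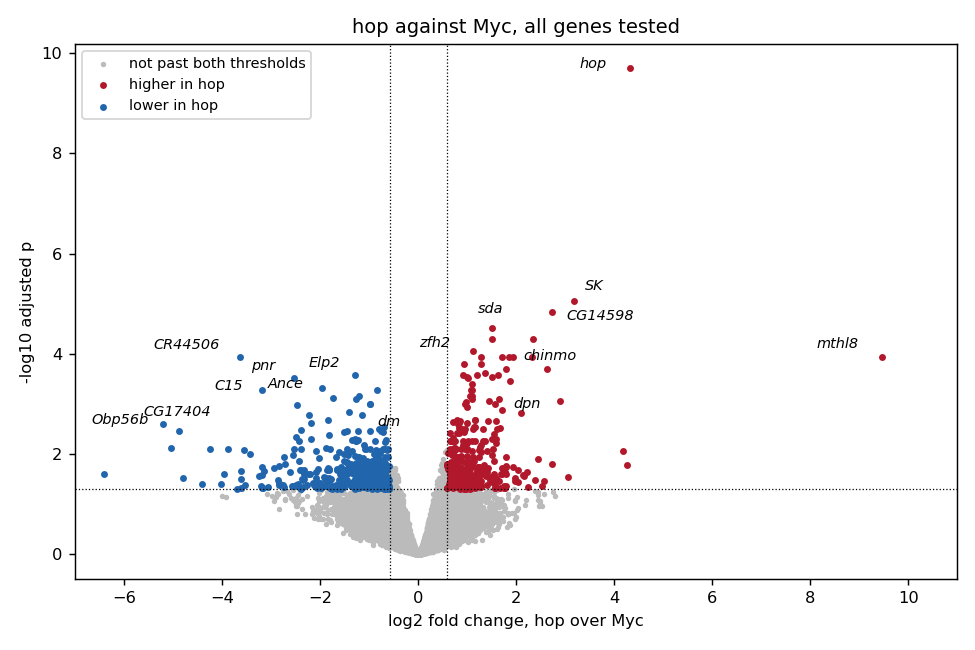
Each point is 1 of the 12741 genes, with its log2 fold change of hop over Myc on the horizontal axis and -log10 of the adjusted p (edgeR) on the vertical axis. Red points are the 333 genes higher in hop and blue points the 373 lower in hop past both thresholds (dotted lines), and *hop* stands above all others. The position of *mthl8* on the horizontal axis depends on the prior count, since it had no count in Myc.

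Library Myc 1 stood apart from the other Myc libraries. Along the first principal component of the 6 libraries, which held 66.6% of the variance of the 500 most variable genes, hop 1, hop 2 and hop 3 lay at 19.4, 15.5 and 19.3, Myc 1 lay at 6.19, and Myc 2 and Myc 3 lay at -34.7 and -25.8. Of the 333 genes higher in hop, Myc 1 was above both other Myc libraries in 68.8%, against 36.1% of all genes tested, and of the 373 lower genes it was below both in 66.0%, against 39.3%. Without Myc 1 the calls grew to 1232 higher and 1022 lower, and 330 of the 333 and 352 of the 373 were among them. Without Myc 2 the calls were 144 and 100, and without Myc 3 they were 120 and 103. Leaving out hop 1, hop 2 or hop 3 left 158, 283 and 169 higher genes and 139, 176 and 154 lower genes. The gfp libraries bear on this comparison through the filter, the scaling and the shared estimate of the spread. Leaving out gfp 1, gfp 2 or gfp 3 left 288, 240 and 241 higher and 301, 230 and 240 lower genes. With none of the gfp libraries in the fit, 147 genes were called higher and 119 lower, so many calls depended on the control libraries. At the adjusted p alone, the rule for list members, 1390 genes were higher and 1110 lower of 13007 tested without Myc 1. By that rule 153 and 103 were called without Myc 2, and 123 and 106 without Myc 3. Without hop 1, hop 2 or hop 3, 175, 304 and 176 were higher and 145, 180 and 168 lower.

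**Figure D2:**
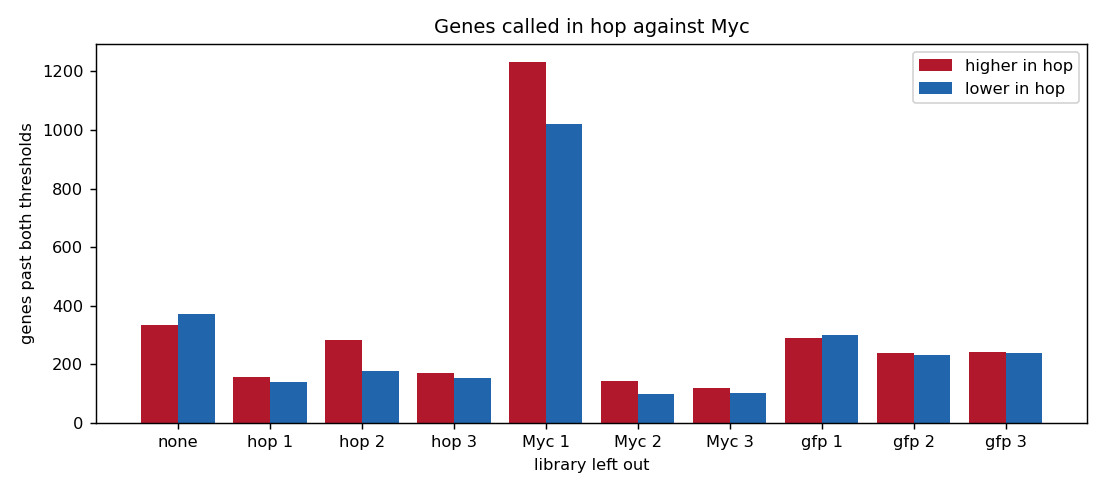
Bars give the number of genes past both thresholds in hop against Myc (vertical axis) with no library left out and with each of the 9 libraries left out in turn (horizontal axis), red for higher and blue for lower in hop. The bars without Myc 1 reach 1232 and 1022, above the 333 and 373 of the full fit, and those without Myc 2 or Myc 3 fall to between 100 and 144.

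The misexpressed genes marked their genotypes. *hop* (chromosome X, 11360930 to 11368098, BDGP6) measured 1360, 1145 and 1432 CPM (counts scaled to library size with TMM factors) in hop 1 to hop 3, against 58.6, 73.6 and 64.5 CPM in Myc 1 to Myc 3 and 71.6 ± 8.73 CPM (SD, n = 3) in gfp. Every hop library was far above every Myc library, with a 20.03-fold difference (log2 4.32 ± 0.15 SE, adjusted p = 2.0e-10). *dm* (X, 3373159 to 3391697), the *Myc* gene, measured 351, 280 and 336 CPM in hop, against 774, 538 and 602 CPM in Myc and 243 ± 13.7 CPM (SD, n = 3) in gfp. The hop and Myc libraries did not overlap, and *dm* was 1.98-fold lower in hop (log2 -0.99 ± 0.14, adjusted p = 0.001). Set against gfp in the same fit, the log2 difference of *dm* was 0.41 in hop (adjusted p = 0.083) and 1.39 in Myc (adjusted p = 0.00023). The counts do not separate the *uas* transgenes from the endogenous genes. Because the strand setting of the counting is not stated, values are uncertain for genes whose exons overlap another gene on the opposite strand. Among the genes named here these are *dm*, *dpn*, *zfh2*, *Ama*, *Ilp8*, *Mmp1*, *tkv*, *Hr38*, *Irk1*, *cnc*, *mld*, *sas*, *spz*, *spz4*, *Spn88Ea*, *Nox*, *crq*, *Hsp68*, *RpS20*, *CG7414*, *Aats-cys*, *Rpb10*, *ATPsyn-beta*, *CG8680*, *CG17684*, *CG10014* and *CG17404*. Exons of *dm*, *Ilp8*, *Irk1*, *ush*, *SPE*, *btl*, *trh* and *CG4115* overlap another gene on the same strand, where reads can be shared whatever the setting.

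A further pair of genes, *SK* and *dpn*, marked hop against both other genotypes. *SK* (X, 5340236 to 5405138) encodes a small-conductance calcium-activated potassium channel. It measured 327, 191 and 309 CPM in hop, 38.6, 21.1 and 31.6 CPM in Myc and 37.8 ± 6.92 CPM (SD, n = 3) in gfp. The lowest hop library was several times above the highest Myc library, and the difference was 9.01-fold (log2 3.17 ± 0.24, adjusted p = 8.8e-06). The other called members of the 16 potassium channels tested were *Irk1* (log2 0.54) and *Elk* (log2 1.10), both of which lost their call with any of Myc 2, Myc 3, gfp 3, hop 1, hop 2 or hop 3 left out, *Elk* also without gfp 2 (adjusted p up to 0.126 for *Irk1* and 0.145 for *Elk*). *dpn* (2R, 8228971 to 8232330), a bHLH repressor of neural stem cells and a Notch target, measured 72.7, 66.4 and 78.0 CPM in hop, against 34.7, 19.0 and 19.2 CPM in Myc and 31.7 ± 3.48 CPM (SD, n = 3) in gfp. Its groups did not overlap, Myc 1 was the highest Myc library, and the difference was 2.97-fold (log2 1.57 ± 0.22, adjusted p = 0.001).

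*mthl8*, which encodes a G protein-coupled receptor of the Methuselah family, was the only gene of the raw table with no count in any library of 1 of these genotypes and at least 10 in each library of the other. It had 89, 84 and 86 counts in hop and 0 in every Myc and gfp library. With 3 counts over the Myc libraries as the floor that counting error allows, its level was at least 84.1-fold higher in hop. It lies at the left end of chromosome arm 3L (22428 to 26308). Of 15 Methuselah receptors tested, 4 were called higher and 0 lower, also including *mthl3* (44.8, 54.4 and 57.5 CPM in hop, against 31.3, 25.7 and 28.0 CPM in Myc, adjusted p = 0.008). With a library left out, 2 (Myc 2, Myc 3 or hop 3) to 6 (Myc 1) of these receptors were called higher.

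**Figure D3:**
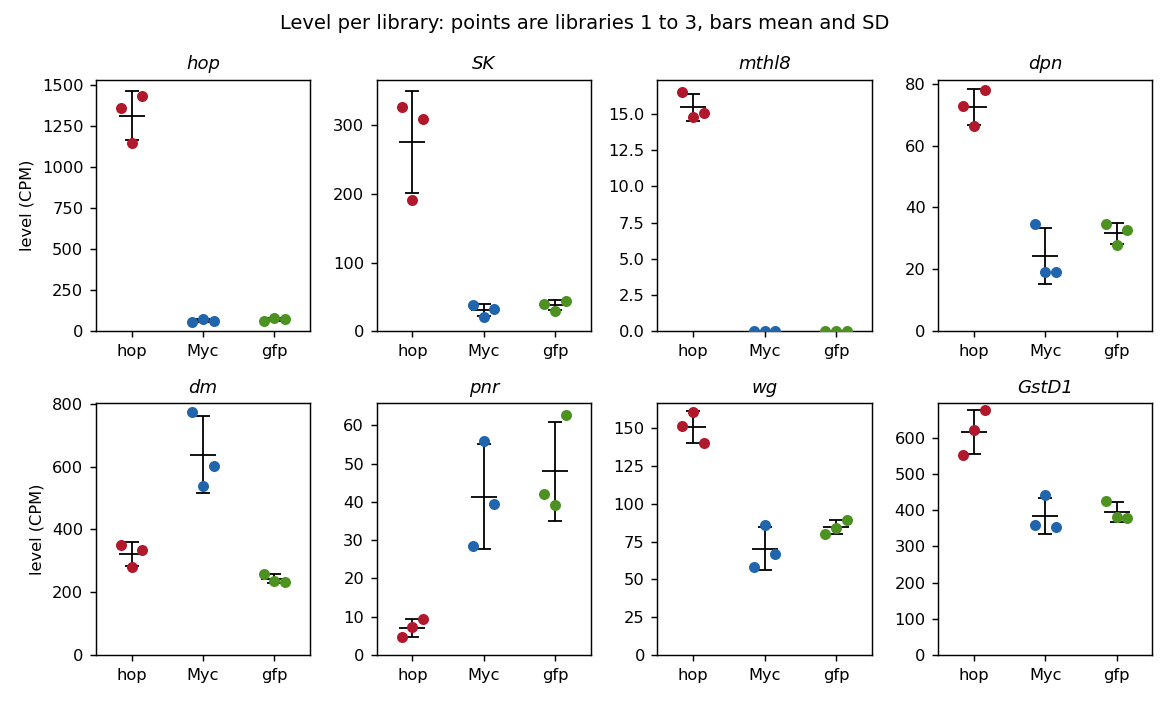
Level in CPM (vertical axes, from 0) of 8 genes in each library of hop, Myc and gfp (horizontal axes); points are libraries 1 to 3 from left to right and bars the mean and SD. In every panel but those of *dm* and *pnr* all 3 hop libraries lie above all 3 Myc libraries, and in those of *dm* and *pnr* they lie below.

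Besides the misexpressed kinase, the JAK/STAT pathway differed at the receptor and the feedback inhibitor, while the transcription factor itself did not pass the test. Of 11 pathway components tested, 4 were called higher in hop and 0 lower, with a median log2 fold change of 0.63. The 4 include the misexpressed *hop* itself, and *Socs36E* and *dome* are also counted among the targets below. Besides *hop*, *Socs36E*, the feedback inhibitor, measured 85.3, 90.8 and 90.9 CPM in hop, against 39.5, 34.2 and 35.7 CPM in Myc (log2 1.29 ± 0.14, adjusted p = 0.00016). The receptor gene *dome* measured 187, 191 and 222 CPM in hop, against 102, 102 and 94.5 CPM in Myc (log2 1.01 ± 0.12, adjusted p = 0.0003). Neither gene's groups overlapped. *ken*, a repressor that competes for Stat92E sites, measured 97.8, 122 and 150 CPM in hop, against 88.8, 56.9 and 74.2 CPM in Myc (adjusted p = 0.024), and lost its call with any of Myc 2, Myc 3, hop 2 or hop 3 left out (adjusted p up to 0.0965). *Stat92E* had 257, 328 and 325 CPM in hop and 285, 311 and 297 CPM in Myc (log2 0.03 ± 0.12, adjusted p = 0.91).

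Genes listed here as JAK/STAT targets were mostly higher in hop. Of 13 tested, 9 were called higher and 1 lower, with a median log2 fold change of 1.10, and 8 or 9 were called higher with any library left out. Several of them were put on the list because the study describes them in these cells, so the count is not independent of these libraries. The study names *chinmo*, *Socs36E*, *dome* and *zfh2* as known targets. It reports *Ama*, *Ilp8* and *Mmp1* as raised in these cells, and it calls *Mmp1* an established target of JNK. *chinmo*, a BTB zinc finger gene of early developmental identity, measured 546, 537 and 760 CPM in hop, 225, 119 and 164 CPM in Myc and 110 ± 9.55 CPM (SD, n = 3) in gfp. The groups did not overlap (log2 1.86 ± 0.20, adjusted p = 0.00011). *zfh2*, a zinc finger homeodomain gene of the wing hinge, measured 1489, 1595 and 1726 CPM in hop, against 825, 731 and 653 CPM in Myc (log2 1.12 ± 0.11, adjusted p = 8.7e-05). *Ama*, which encodes a secreted immunoglobulin protein, measured 64.0, 99.1 and 86.7 CPM in hop, against 25.02, 28.7 and 14.7 CPM in Myc (log2 1.88 ± 0.23, adjusted p = 0.00035). The relaxin-like hormone gene *Ilp8* (log2 1.60 ± 0.26, adjusted p = 0.0031) and the matrix metalloproteinase gene *Mmp1* (log2 1.16 ± 0.18, adjusted p = 0.002) were higher as well. *pnr*, a GATA factor gene of the notum, was the listed gene called lower. Set against gfp in the same fit, *chinmo* had a log2 fold change of 2.48 in hop (adjusted p = 1.8e-05) and 0.63 in Myc (adjusted p = 0.12), and *zfh2* had 0.89 in hop (adjusted p = 0.00051) and -0.24 in Myc (adjusted p = 0.35).

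Several notum genes of the wing disc were lower in hop. Of 14 notum selectors tested, 5 were called lower and 1 higher, with 2 (without Myc 3) to 6 (without Myc 1) called lower when a library was left out. *pnr* (3R, 16026079 to 16041796) measured 4.65, 7.42 and 9.29 CPM in hop, against 28.6, 55.9 and 39.4 CPM in Myc and 48.0 ± 12.9 CPM (SD, n = 3) in gfp. It was 5.76-fold lower in hop, without overlap (log2 -2.53 ± 0.30, adjusted p = 0.0003). *tup*, a LIM homeodomain gene, measured 12.6, 11.3 and 20.7 CPM in hop, against 42.2, 34.2 and 37.6 CPM in Myc (log2 -1.35 ± 0.24, adjusted p = 0.0053). *caup*, an Iroquois gene of the lateral notum and the proneural prepattern, measured 93.3, 118 and 126 CPM in hop, against 157, 197 and 225 CPM in Myc (adjusted p = 0.0087), and it lost its call without Myc 3 (adjusted p 0.0503). *ush*, which encodes a partner of Pannier, was the exception with 178, 204 and 208 CPM in hop and 129, 106 and 94.4 CPM in Myc (log2 0.84 ± 0.14, adjusted p = 0.0031). Against gfp, the log2 fold change of *pnr* was -2.75 in hop (adjusted p = 0.00023) and -0.22 in Myc (adjusted p = 0.80), and that of *tup* was -1.27 in hop (adjusted p = 0.0084) and 0.08 in Myc (adjusted p = 0.93).

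Of 9 hinge selectors tested, 2 were called higher in hop with all libraries and with any 1 left out, *zfh2* and *Dr*, a homeobox gene (80.5, 90.9 and 87.4 CPM in hop, against 51.3, 54.2 and 54.8 CPM in Myc, adjusted p = 0.011). Of 9 pouch selectors, *nub*, a POU domain gene, was called higher (222, 264 and 297 CPM in hop, against 182, 197 and 170 CPM in Myc, adjusted p = 0.031), a call lost with any of Myc 2, Myc 3, gfp 2, gfp 3, hop 2 or hop 3 left out (adjusted p up to 0.13). Outside these lists, *C15* and *Ance* were among the genes lower in hop with the smallest p. *C15*, a homeobox gene of the distal leg, measured 1.30, 1.59 and 1.93 CPM in hop, against 7.505, 19.8 and 17.6 CPM in Myc (log2 -3.20 ± 0.41, adjusted p = 0.00052). *Ance*, which encodes an angiotensin-converting enzyme homolog, measured 34.95, 55.6 and 49.4 CPM in hop, against 131, 264 and 151 CPM in Myc and 148, 201 and 218 CPM in gfp. The hop libraries of *Ance* lay below all others (log2 -1.96 ± 0.25, adjusted p = 0.00048).

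The called genes of Wingless, Notch and Dpp signaling were all higher in hop with all libraries in the fit. Of 15 genes of Wingless signaling tested, 7 were called higher and 0 lower (median log2 fold change 0.48), and 2 (without Myc 3 or hop 3) to 8 (without Myc 1) were called higher with a library left out. The ligand gene *wg* (2L, 7307159 to 7316265) measured 152, 161 and 140 CPM in hop, against 58.1, 86.0 and 66.8 CPM in Myc, without overlap (log2 1.10 ± 0.15, adjusted p = 0.0007). Its neighbors *Wnt4*, *CG13786* and *Ndae1* were past both thresholds too, so that 4 adjacent tested genes on 2L were higher in hop. These 3 neighbors lost their calls without any of Myc 2, Myc 3, hop 1 or hop 3, *CG13786* and *Ndae1* also without any gfp library (adjusted p up to 0.123 for *Wnt4*, 0.187 for *CG13786* and 0.178 for *Ndae1*), whereas the nearby *Wnt6* was not called (log2 0.25 ± 0.18, adjusted p = 0.43). *fz2*, a Wingless receptor gene, measured 631, 706 and 710 CPM in hop, against 361, 357 and 346 CPM in Myc (log2 0.94 ± 0.10, adjusted p = 0.00016). The co-receptor gene *arr* differed by 0.48 on the log2 scale (adjusted p = 0.019) and was not called without Myc 3 or hop 3 (adjusted p up to 0.075).

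Of 20 Notch components and targets tested, 7 were called higher in hop and 0 lower (median log2 fold change 0.51). With a library left out, 4 (without Myc 2 or hop 1) to 9 (without Myc 1) were called higher. The Enhancer of split genes, which encode repressors and Bearded family proteins induced by Notch, made up 5 of the 7. *E(spl)m3-HLH* measured 320, 247 and 232 CPM in hop, against 137, 71.1 and 59.5 CPM in Myc (log2 1.58 ± 0.28, adjusted p = 0.0059). *E(spl)m7-HLH* measured 616, 443 and 371 CPM in hop, against 222, 158 and 192 CPM in Myc (log2 1.32 ± 0.23, adjusted p = 0.0054). Library 1 was the highest of each genotype for both genes, and the groups did not overlap. *E(spl)m4-BFM* measured 31.2, 23.3 and 18.2 CPM in hop, 6.79, 8.22 and 10.4 CPM in Myc and 26.7, 21.1 and 20.4 CPM in gfp, with a log2 fold change against gfp of 0.09 in hop (adjusted p = 0.85) and -1.42 in Myc (adjusted p = 0.0094). The receptor gene *N* was called higher as well, but kept that call only when no library or Myc 1 was left out.

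Of 12 genes of Dpp signaling tested, 4 were called higher and 0 lower. *brk*, a repressor of Dpp targets, measured 126, 169 and 139 CPM in hop, 41.6, 43.2 and 29.2 CPM in Myc and 41.0, 56.1 and 33.6 CPM in gfp (log2 1.93 ± 0.20, adjusted p = 0.00011). *tkv*, the type I receptor gene, measured 342, 376 and 408 CPM in hop, against 233, 198 and 156 CPM in Myc (log2 0.94 ± 0.16, adjusted p = 0.0036). Both were called with any library left out, and the other called members, *shn* and *dally*, lost their calls without Myc 2 or Myc 3 among others (adjusted p up to 0.13 for *shn* and 0.15 for *dally*). The ligand gene *dpp*, whose driver marks the sorted cells, had 194, 198 and 196 CPM in hop and 218, 225 and 242 CPM in Myc (log2 -0.22 ± 0.11, adjusted p = 0.21). Of 14 EGFR pathway genes *kek1*, an inhibitor of the receptor, was lower (160, 156 and 162 CPM in hop, against 234, 280 and 272 CPM in Myc, adjusted p = 0.0036), and 3 were called higher, all lost without any of Myc 2, Myc 3, hop 1 or hop 3. The proneural gene *sc* was higher (156, 134 and 168 CPM in hop, against 94.7, 79.3 and 85.4 CPM in Myc, adjusted p = 0.0025), as were 3 of 12 proneural and sensory precursor genes in all.

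**Figure D4:**
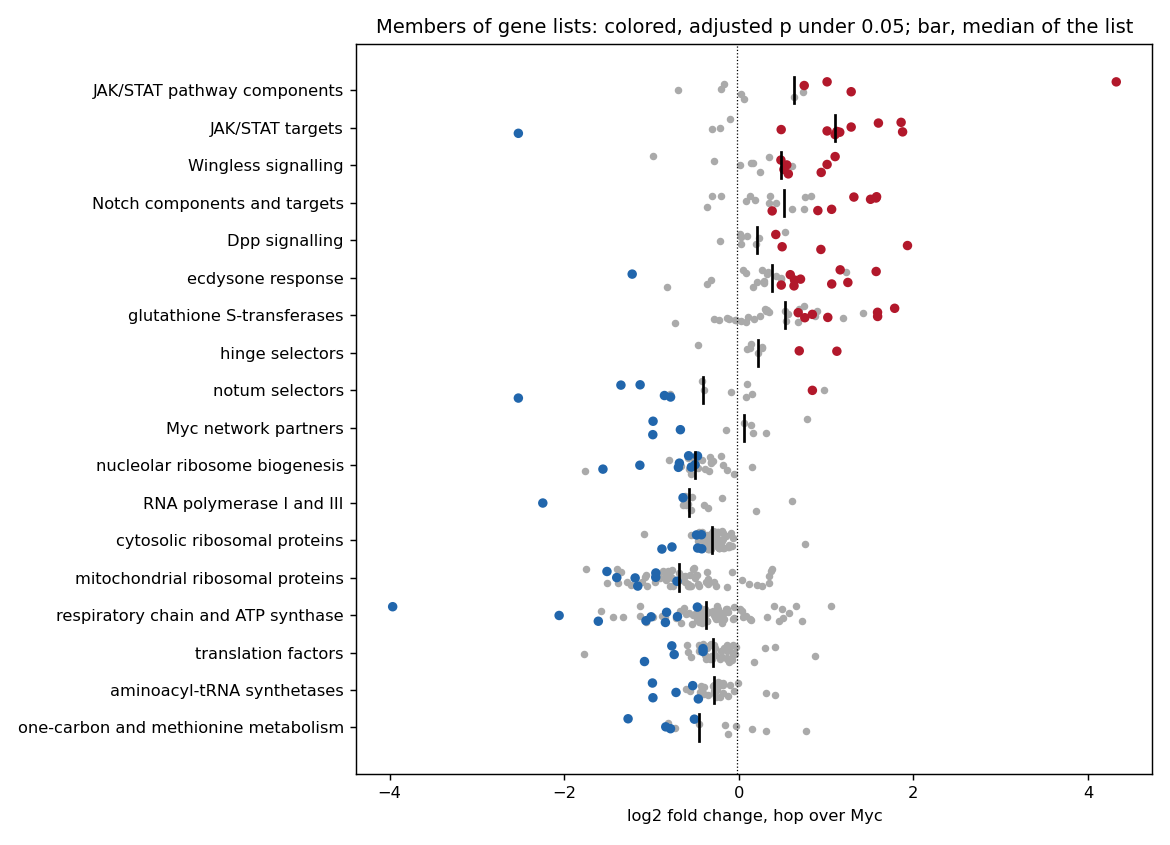
Each point is the log2 fold change of hop over Myc (horizontal axis) of 1 tested member of a gene list (rows), gray where the adjusted p over all genes is not under 0.05, red where called higher and blue where called lower in hop. Black bars are the medians of the lists, 1.10 for JAK/STAT targets and -0.68 for mitochondrial ribosomal proteins among them, and the dotted line is the median of all genes tested, -0.02.

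Ecdysone response genes were higher in hop where called, apart from *DopEcR*. The list of ecdysone genes holds several that the study describes in these cells, so its counts are not independent of these libraries. Of 26 tested, 9 were called higher and 1 lower (median log2 fold change 0.38), and 4 (without hop 1) to 11 (without Myc 1) were called higher with a library left out. *Oatp74D*, which encodes the importer of ecdysone, measured 337, 278 and 341 CPM in hop, against 186, 134 and 136 CPM in Myc (log2 1.06 ± 0.14, adjusted p = 0.0007). *Hr38*, a nuclear receptor gene, measured 54.7, 47.7 and 46.1 CPM in hop, against 23.2, 21.1 and 22.0 CPM in Myc (log2 1.16 ± 0.18, adjusted p = 0.002). *Eip75B*, another nuclear receptor gene, measured 688, 602 and 743 CPM in hop, against 432, 417 and 396 CPM in Myc (log2 0.71 ± 0.11, adjusted p = 0.0023). The chromatin remodeler gene *Iswi* was higher by 0.64 ± 0.11 on the log2 scale (adjusted p = 0.0054). These 4 genes kept their calls with any library left out, whereas *ImpE1* (log2 1.25 ± 0.25, adjusted p = 0.012) lost its call without hop 1 (adjusted p up to 0.054). *DopEcR*, the gene called lower (log2 -1.22 ± 0.27, adjusted p = 0.018), lost its call without any of Myc 2, Myc 3, hop 1 or hop 2 (adjusted p up to 0.081). The receptor gene *EcR* was not called with all libraries (274, 264 and 368 CPM in hop, 259, 162 and 225 CPM in Myc, adjusted p = 0.086) and was called without Myc 1 (adjusted p = 0.0081). Also in the study's tables, *Cyp18a1* (log2 1.23, adjusted p = 0.08), *E(bx)* (log2 0.29, adjusted p = 0.12), *Blimp-1* (log2 -0.36, adjusted p = 0.45) and *ftz-f1* were not called with all libraries. Of 8 genes of temporal identity 2 were called higher, *chinmo* and *mamo*, which encodes a zinc finger protein (672, 455 and 609 CPM in hop, against 224, 167 and 143 CPM in Myc, log2 1.70 ± 0.18, adjusted p = 0.00011).

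Glutathione S-transferases, which conjugate glutathione to toxic compounds, were higher in hop where called. Of 34 tested, 7 were called higher and 0 lower (median log2 fold change 0.53), and 3 (without Myc 3 or hop 3) to 8 (without Myc 1) were called higher with a library left out. *GstD3* measured 31.8, 39.9 and 41.0 CPM in hop, against 10.5, 16.7 and 10.4 CPM in Myc (log2 1.59 ± 0.24, adjusted p = 0.0022). *GstD1* measured 554, 620 and 676 CPM in hop, against 358, 442 and 354 CPM in Myc (log2 0.68 ± 0.12, adjusted p = 0.0056). Both kept their calls with any library left out, without overlap of the groups. The study names GstD genes in these cells, so the count is not independent of these libraries. Their regulators did not pass the test. *cnc*, which encodes the Nrf2 homolog, had 129, 130 and 146 CPM in hop and 130, 107 and 105 CPM in Myc (adjusted p = 0.25), and its inhibitor *Keap1* had 78.1, 89.9 and 59.8 CPM in hop and 87.4, 98.5 and 88.3 CPM in Myc (adjusted p = 0.28).

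The GstD genes lie side by side, and the calls extended to their neighbors. On 3R between 12360008 and 12376572, 8 consecutive tested genes were past both thresholds and higher in hop, namely *CG4115*, *Tim17a1*, *GstD10*, *GstD9*, *GstD1*, *GstD3*, *GstD4* and *GstD5*. Their log2 fold changes were 0.68 to 1.79. The flanking genes *MBD-R2* (0.47, adjusted p = 0.14) and *GstD6* (1.42, adjusted p = 0.065) were not called. Nearby on the same arm, between 12222387 and 12256592, 6 consecutive tested genes were past both thresholds and lower in hop, namely *CG10014*, *CG17404*, *Cyp313a5*, *Cyp313a2*, *Cyp313a3* and *CG3942*, with log2 fold changes of -4.88 to -2.61. These are genes of few counts in hop: *CG17404* measured 0.186, 0 and 0.526 CPM in hop, 11.4, 5.06 and 6.36 CPM in Myc and 0 in every gfp library. *Cyp313a3*, which encodes a cytochrome P450, measured 0.186, 0.706 and 0.175 CPM in hop, against 9.47, 8.22 and 3.91 CPM in Myc (adjusted p = 0.0078). Levels of *CG10014*, *CG17404*, *Cyp313a5* and *Cyp313a3* were near 0 in gfp too. Set against gfp in the same fit, these genes were higher in Myc (log2 5.7, 8.4, 3.4 and 4.0, adjusted p 0.0022 to 0.012). None of them passed in hop against gfp (adjusted p 0.20 to 0.89). Exons of *CG10014* and *CG17404* overlap on opposite strands, and the strand setting of the counting is not stated, so their reads cannot be told apart. In the GstD run, *GstD1* and *GstD3* kept their calls with any library left out and the other 6 genes lost theirs with at least 1 (adjusted p up to 0.187, for *GstD9*). In the other run *CG10014*, *CG17404* and *Cyp313a3* kept theirs, and *Cyp313a5*, *Cyp313a2* and *CG3942* lost theirs without any of Myc 2, Myc 3, hop 2 or hop 3, *CG3942* also without Myc 1 (adjusted p 0.0559). Among 14 such runs of 3 or more consecutive called genes, the 8 of the GstD region made the longest.

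**Figure D5:**
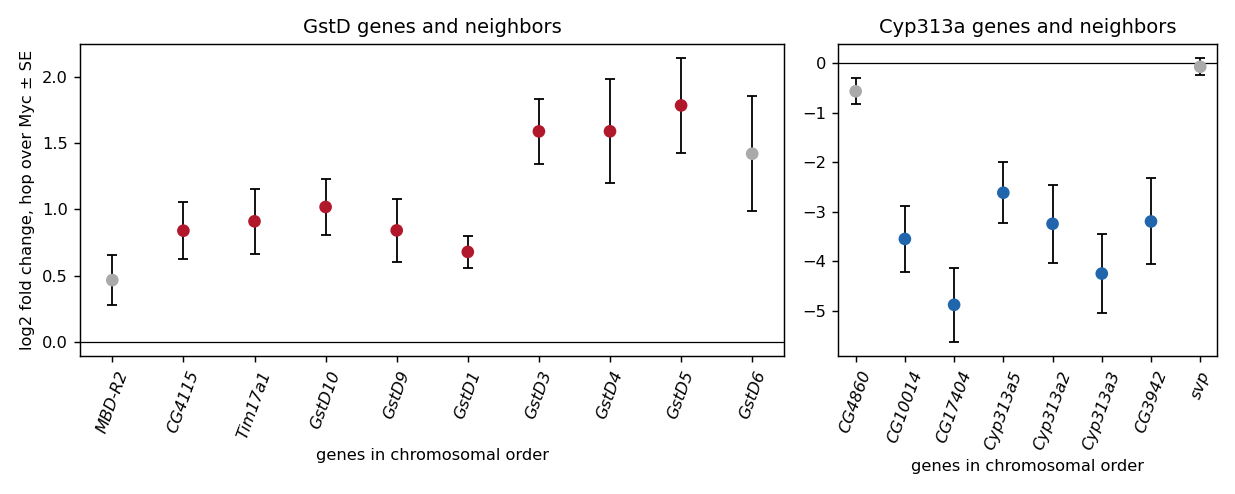
Log2 fold change of hop over Myc with its SE (vertical axes) for consecutive tested genes in chromosomal order (horizontal axes), at the GstD genes on the left and at the Cyp313a genes on the right, each with the first gene beyond either end. Red and blue points have an adjusted p under 0.05 and gray points do not. The 8 red genes on the left lie between 0.68 and 1.79, and the 6 blue genes on the right between -4.88 and -2.61.

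Genes of ribosome production were lower in hop than in Myc where called. Of 29 nucleolar genes of ribosome biogenesis tested, 8 were called lower and 0 higher, 28 had a negative fold change, and the median log2 fold change was -0.50. With a library left out, 1 (without Myc 2 or hop 1) to 11 (without Myc 1) were called lower. *mod*, which encodes a nucleolar protein that Myc is known to induce, measured 405, 474 and 486 CPM in hop, 804, 724 and 678 CPM in Myc and 390, 406 and 416 CPM in gfp. The hop libraries lay near gfp and below all Myc libraries, and the call held with any library left out (log2 -0.69 ± 0.11, adjusted p = 0.0028). *Nop60B*, which encodes the pseudouridine synthase of ribosomal RNA, measured 167, 204 and 221 CPM in hop, against 306, 267 and 266 CPM in Myc (log2 -0.50 ± 0.13, adjusted p = 0.03). *Tif-IA*, a factor for RNA polymerase I, measured 90.5, 105 and 113 CPM in hop, against 137, 162 and 131 CPM in Myc (log2 -0.47 ± 0.14, adjusted p = 0.049). Without Myc 2, Myc 3 or hop 1, among others, neither was called (adjusted p up to 0.11 for *Nop60B* and 0.22 for *Tif-IA*). *nop5* differed by -0.29 ± 0.12 on the log2 scale and did not pass (adjusted p = 0.15). The exons of *Nop60B* hold several snoRNA genes, whose reads may be shared.

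Most genes of protein synthesis were not called, and those that were called were lower in hop. Of 85 cytosolic ribosomal protein genes tested, 84 had a negative fold change, with a median of -0.30 on the log2 scale, and 6 were called lower and 0 higher, or 0 (without Myc 2) to 9 (without Myc 1 or hop 3) with a library left out. *RpS20* measured 306, 471 and 426 CPM in hop, against 647, 740 and 658 CPM in Myc (log2 -0.77 ± 0.16, adjusted p = 0.014), and lost its call without Myc 2 (adjusted p 0.058). Of 50 translation factors 5 were called lower and 0 higher, and of 33 aminoacyl-tRNA synthetases 5 were called lower and 0 higher. *CG7414*, which encodes eIF2A, measured 162, 193 and 198 CPM in hop, against 326, 325 and 291 CPM in Myc (log2 -0.77 ± 0.13, adjusted p = 0.0034). The tRNA synthetase gene *Aats-cys* measured 43.7, 39.0 and 44.9 CPM in hop, against 69.7, 98.7 and 85.2 CPM in Myc and 64.4, 83.8 and 69.1 CPM in gfp (log2 -0.99 ± 0.16, adjusted p = 0.0034). Its hop libraries were also below gfp (log2 -0.77, adjusted p = 0.015), while Myc against gfp did not pass (log2 0.22, adjusted p = 0.60). Without any of Myc 2, Myc 3 or hop 1, 1 translation factor was called lower, and without hop 3, 1 synthetase was. Of 14 subunits and initiation factors of RNA polymerases I and III 2 were called lower, *RpI135* and *Rpb10*, and neither was called without Myc 2 (adjusted p up to 0.13 for *RpI135* and 0.095 for *Rpb10* over the libraries left out). Of 9 Myc network genes 3 were called lower, the misexpressed *dm* itself and the helicase genes *pont* (adjusted p = 0.02) and *rept* (adjusted p = 0.039). Of these *dm* was the only 1 called without Myc 2, Myc 3, hop 1 or hop 3.

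A minority of nuclear genes for mitochondrial proteins was called, each of them lower in hop. Of 71 mitochondrial ribosomal protein genes tested, 63 had a negative fold change (median log2 -0.68), and 7 were called lower and 0 higher. This count depended on single libraries, with 26 called lower without Myc 1 and 0 without Myc 2 or without Myc 3. In those fits 1110, 103 and 106 of all genes tested were called lower. Of 79 genes of the respiratory chain and ATP synthase 9 were called lower and 0 higher, with 2 (without Myc 2, Myc 3 or hop 1) to 18 (without Myc 1) called lower. *CG8680*, which encodes a subunit of complex I, measured 11.7, 22.4 and 20.3 CPM in hop, 80.8, 34.0 and 51.7 CPM in Myc and 10.1, 10.3 and 15.5 CPM in gfp (log2 -1.61 ± 0.31, adjusted p = 0.0091). Its groups did not overlap, with Myc 1 the highest library, and its exons overlap those of *CG4230* on the other strand. *ATPsyn-beta* measured 1023, 1170 and 1136 CPM in hop, against 1596, 1676 and 1356 CPM in Myc (log2 -0.48 ± 0.11, adjusted p = 0.02), and was not called without Myc 2, hop 1 or hop 3 (adjusted p up to 0.097). Of 12 mRNAs of the mitochondrial genome tested, a list added after the values were seen, 3 were called lower and 0 higher. *mt:ATPase6* measured 232, 371 and 268 CPM in hop, 1228, 1009 and 662 CPM in Myc and 1297, 905 and 772 CPM in gfp (log2 -1.73 ± 0.23, adjusted p = 0.00076). The hop libraries of *mt:ATPase6* lay below those of Myc and gfp alike, and its exon is shared with neighboring mitochondrial genes. All genes of the mitochondrial genome took 3.09 to 4.10% of the counts in hop, 3.89 to 5.19% in Myc and 3.68 to 4.94% in gfp.

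Methionine and one-carbon metabolism gave calls that mostly held with libraries left out. Of 13 genes tested, 4 were called lower and 0 higher, and 3 or 4 were called lower with any library left out. *Sam-S*, which encodes S-adenosylmethionine synthetase, measured 288, 331 and 352 CPM in hop, 604, 552 and 576 CPM in Myc and 248, 258 and 262 CPM in gfp. The Myc libraries lay above all hop libraries (log2 -0.84 ± 0.11, adjusted p = 0.00052). *Eip55E*, which encodes cystathionine gamma-lyase, measured 24.9, 23.7 and 32.2 CPM in hop, against 67.0, 61.6 and 66.3 CPM in Myc (log2 -1.27 ± 0.17, adjusted p = 0.0008). *Ahcy13*, which encodes adenosylhomocysteinase, measured 110, 155 and 149 CPM in hop, against 225, 238 and 250 CPM in Myc (log2 -0.78 ± 0.15, adjusted p = 0.0093). Against gfp, the log2 difference of *Sam-S* was 0.34 in hop (adjusted p = 0.071) and 1.17 in Myc (adjusted p = 0.00023). Of 16 amino acid transporters 2 were called lower and 2 higher. Of these *path*, which encodes a growth-promoting transporter, was lower (133, 116 and 112 CPM in hop, against 234, 194 and 167 CPM in Myc, adjusted p = 0.0078), and *NAAT1*, a transporter of essential amino acids, was higher (10.97, 6.53 and 8.76 CPM in hop, against 1.61, 0.422 and 2.61 CPM in Myc, adjusted p = 0.013), a call lost without hop 1 (adjusted p up to 0.055). Of 16 genes of purine and pyrimidine synthesis 3 were called lower, or 0 without Myc 3, and of 13 genes of glycolysis and 8 chaperonin subunits none was called in either direction with any library left out.

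A few genes above gfp in both winners lay close together in hop and Myc. *mnd*, an amino acid transporter gene, had 113, 84.1 and 85.9 CPM in hop and 124, 106 and 99.7 CPM in Myc (log2 -0.22 ± 0.15, adjusted p = 0.38), and its log2 fold change against gfp was 0.70 in hop (adjusted p = 0.017) and 0.93 in Myc (adjusted p = 0.0054). *mld*, a zinc finger gene needed to make ecdysone in the ring gland, had 450, 368 and 494 CPM in hop and 482, 357 and 407 CPM in Myc (log2 0.07 ± 0.14, adjusted p = 0.78), with 0.70 in hop (adjusted p = 0.012) and 0.62 in Myc (adjusted p = 0.027) against gfp. In the full fit, the hop and Myc libraries of both genes overlapped. *Mpcp*, which encodes the mitochondrial phosphate carrier, was called lower in hop (334, 332 and 400 CPM in hop, against 497, 433 and 545 CPM in Myc, adjusted p = 0.031), while its log2 fold change against gfp was 0.58 in hop (adjusted p = 0.013) and 1.05 in Myc (adjusted p = 0.0006). The call was lost without Myc 3, gfp 2, gfp 3, hop 1 or hop 2 (adjusted p up to 0.14). A p that misses the threshold does not show that hop and Myc were alike in these genes.

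Of 25 genes of recognition between competing cells tested, 4 were called higher and 0 lower, beside 3.34% of all genes called higher, and 1 (without Myc 2, Myc 3, hop 1 or hop 3) to 4 were called higher with a library left out. *Tl*, which encodes the Toll receptor, measured 102, 116 and 119 CPM in hop, 63.4, 56.9 and 52.1 CPM in Myc and 78.5, 89.9 and 81.1 CPM in gfp, and kept its call throughout (log2 0.97 ± 0.13, adjusted p = 0.0009). *sas*, a cell surface ligand gene, measured 480, 361 and 483 CPM in hop, against 360, 249 and 281 CPM in Myc (adjusted p = 0.032), and lost its call with any library but Myc 1, gfp 1 and hop 2 left out (adjusted p up to 0.14). None of *spz*, *spz3*, *spz4*, *spz6*, *SPE*, *modSP*, *Spn88Ea*, *Spn88Eb* and *Pvr*, which encode Toll ligands, proteases and serpins of the Toll cascade and a receptor of PDGF and VEGF type, was called (adjusted p 0.15 to 0.87). Of 13 apoptosis genes *rpr*, a killer gene, was called higher (61.2, 54.7 and 72.2 CPM in hop, against 48.1, 20.7 and 19.2 CPM in Myc, adjusted p = 0.037), with Myc 1 near the hop libraries. Without Myc 1 its adjusted p was 4.0e-05, and without any of Myc 2, Myc 3, gfp 2, gfp 3 or a hop library it was not called (adjusted p up to 0.15). *W*, the gene also known as *hid*, had 141, 111 and 163 CPM in hop and 119, 93.6 and 90.9 CPM in Myc (adjusted p = 0.10), or an adjusted p of 0.017 without Myc 1. *Duox*, which encodes an oxidase that makes hydrogen peroxide, was higher (249, 175 and 195 CPM in hop, against 153, 94.5 and 96.6 CPM in Myc, adjusted p = 0.018), a call lost without Myc 2, Myc 3 or hop 1 (adjusted p up to 0.085), and *Nox* was not called (log2 -0.55 ± 0.17, adjusted p = 0.066).

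Genes with the largest increases or the smallest p included a cuticle protein gene and several genes outside the lists. *CG14598* measured 58.0, 85.3 and 66.2 CPM in hop, against 8.40, 10.5 and 12.4 CPM in Myc (log2 2.74 ± 0.22, adjusted p = 1.5e-05). *Mur82C*, named as a mucin-related gene, measured 5.02, 6.89 and 5.43 CPM in hop, against 0, 0.211 and 0.652 CPM in Myc (log2 4.17 ± 0.80, adjusted p = 0.0087). *Cpr49Ah*, a cuticle protein gene, measured 55.0, 63.6 and 74.6 CPM in hop, against 13.4, 15.2 and 9.45 CPM in Myc (log2 2.35 ± 0.22, adjusted p = 5.1e-05). The groups of these 3 genes did not overlap, which was a condition for naming genes by fold change. By p, *sda*, an aminopeptidase gene, was among the first (542, 505 and 612 CPM in hop, against 231, 175 and 176 CPM in Myc, log2 1.51 ± 0.13, adjusted p = 3.0e-05), and so was *grn*, a GATA factor gene (305, 327 and 346 CPM in hop, against 135, 116 and 96.0 CPM in Myc, log2 1.496 ± 0.14, adjusted p = 5.1e-05). For *Ect3*, a beta-galactosidase gene, and *CG17684* the control lay with hop. *Ect3* measured 45.9, 46.1 and 40.0 CPM in hop, 6.97, 12.7 and 7.17 CPM in Myc and 49.9, 35.9 and 46.9 CPM in gfp, and the log2 fold change against gfp was -0.01 in hop (adjusted p = 0.99) and -2.32 in Myc (adjusted p = 0.00024). *CG17684* measured 32.0, 27.7 and 16.8 CPM in hop, 4.47, 4.85 and 3.10 CPM in Myc and 24.3, 19.2 and 19.1 CPM in gfp (hop against Myc, log2 2.63 ± 0.30, adjusted p = 0.0002), and its exons overlap an antisense RNA.

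The largest decreases were mostly genes with almost no counts in hop. *Obp56b*, an odorant-binding protein gene, measured 0.186, 0.353 and 0 CPM in hop, 6.97, 8.22 and 7.01 CPM in Myc and 0.183, 0.172 and 1.54 CPM in gfp (hop against Myc, log2 -5.20 ± 0.81, adjusted p = 0.0025). *PGRP-SB2*, a peptidoglycan recognition protein gene, measured 0.744, 0 and 0.350 CPM in hop, against 3.40, 6.537 and 6.84 CPM in Myc (adjusted p = 0.0078). *CR44506*, a long noncoding RNA, measured 2.79, 1.41 and 1.23 CPM in hop, 29.7, 20.9 and 17.3 CPM in Myc and 3.48, 3.09 and 2.30 CPM in gfp (hop against Myc, log2 -3.63 ± 0.37, adjusted p = 0.00011). In all 3, hop lay with gfp and below Myc. Lack of overlap between hop and Myc was again a condition for naming genes by fold change. At higher levels, *Elp2*, which encodes a subunit of the Elongator complex, measured 48.5, 50.9 and 41.4 CPM in hop, 117, 122 and 104 CPM in Myc and 72.8, 86.2 and 64.1 CPM in gfp (hop against Myc, log2 -1.29 ± 0.15, adjusted p = 0.00026). Its control libraries lay between the winners, with a log2 fold change against gfp of -0.66 in hop (adjusted p = 0.02) and 0.62 in Myc (adjusted p = 0.035). *Pdp1*, a bZIP gene of the circadian clock and of growth, measured 51.1, 65.9 and 60.6 CPM in hop, 133, 82.7 and 107 CPM in Myc and 31.1, 32.1 and 32.6 CPM in gfp, so that both winners were above gfp (log2 0.89, adjusted p = 0.012 in hop, and log2 1.75, adjusted p = 0.00023 in Myc) and hop was below Myc (log2 -0.86 ± 0.17, adjusted p = 0.011).

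The position of the control was read as a description for all called genes, from the log2 of mean CPM plus 0.5, since the comparisons with gfp share their libraries with hop against Myc. Of the 333 genes higher in hop, gfp was nearer to Myc in 254 and nearer to hop in 79. Of the 373 genes lower in hop, gfp was nearer to Myc in 231 and nearer to hop in 142. Without Myc 1 the numbers nearer to Myc were 233 and 220. For the lower genes this mixes loss in hop, as in *pnr* and *Ance*, with gain in Myc, as in *CR44506* and *Sam-S*.

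Calls fell on chromosomes X, 2, 3 and 4, in shares that differed by class and place. Of 11485 protein-coding genes tested 319 were higher and 341 lower, and of 1014 noncoding RNA genes 7 were higher (0.69%) and 28 lower (2.76%). On the X chromosome 70 of 1942 tested genes were higher (3.60%) and 37 lower (1.91%), while on the arms of chromosomes 2 and 3 the higher share was 2.04 to 2.68% and the lower share 2.42 to 3.52%. On the small chromosome 4, 4 of 94 were higher (4.26%) and 2 lower (2.13%). Of 7 markers of male and female cells tested, none was called with all libraries (2 were called higher in hop without Myc 2 and 1 without Myc 1), all had a positive fold change, and their summed level was 2287 to 2335 CPM in hop, 1595 to 2303 CPM in Myc and 1813 to 1978 CPM in gfp. The list pools markers of both sexes, so neither the sum nor the common sign shows the balance of males and females.

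Genes of cell types other than disc epithelium, and of the posterior compartment of the disc itself, were present in all genotypes. The summed level of 8 markers of adult muscle precursors was 325 to 357 CPM in hop, 289 to 330 CPM in Myc and 314 to 404 CPM in gfp, and none was called. Of 10 hemocyte markers tested 1 was called lower, *crq*, a scavenger receptor gene (27.0, 41.5 and 30.3 CPM in hop, against 36.99, 80.1 and 92.4 CPM in Myc, adjusted p = 0.039), and the 12 in the table summed to 194 to 220 CPM in hop, 221 to 264 CPM in Myc and 278 to 293 CPM in gfp. The call of *crq* was lost with any library but Myc 1 and gfp 1 left out (adjusted p up to 0.18). Markers of trachea, an airway that runs along the disc, summed to 837 to 941 CPM in hop, 515 to 577 CPM in Myc and 506.8 to 562.5 CPM in gfp. Of the 6 tested, 3 were called higher and 0 lower, and most of the sum came from the chitin-binding genes *verm* (430, 471 and 418 CPM in hop, against 248, 231 and 221 CPM in Myc, adjusted p = 0.00026) and *serp* (193, 184 and 158 CPM in hop, against 81.5, 96.8 and 73.8 CPM in Myc, adjusted p = 0.00052). *Gasp*, also a chitin-binding gene, measured 93.2, 127 and 128 CPM in hop, against 91.0, 59.9 and 67.0 CPM in Myc (adjusted p = 0.041), and lost its call with any of Myc 2, Myc 3, gfp 2, gfp 3, hop 2 or hop 3 left out (adjusted p up to 0.159). The tracheal receptor gene *btl* had 11.2, 12.01 and 11.4 CPM in hop and 12.9, 23.4 and 24.6 CPM in Myc (adjusted p = 0.083), and the tracheal selector *trh* had 108, 90.9 and 71.5 CPM in hop and 99.5, 57.1 and 82.8 CPM in Myc (adjusted p = 0.62). Markers of neurons and glia were highest in library 1 of each genotype, with 574 to 999 CPM in hop, 388 to 722 CPM in Myc and 550 to 766 CPM in gfp, and none of the 8 was called, or 4 higher without Myc 1. Of 5 fat body markers tested 1 was called lower, *Fbp1*, a storage protein receptor gene (3.53, 4.24 and 1.23 CPM in hop, against 5.18, 11.6 and 12.4 CPM in Myc, adjusted p = 0.044), and it was called only with all libraries or without Myc 1 or gfp 1 (adjusted p up to 0.171). The 6 fat body markers in the table summed to 21.9 to 33.7 CPM in hop, 30.0 to 36.2 CPM in Myc and 28.4 to 31.2 CPM in gfp. The 3 markers of the posterior compartment, which lies beside the *dpp* domain, summed to 94.6 to 112.5 CPM in hop, 72.04 to 82.66 CPM in Myc and 121.7 to 133 CPM in gfp, ranges that do not overlap, and none was called, or 1 higher without Myc 1. The part of these cells in the calls was not tested, and in bulk samples fewer cells of a type cannot be told apart from less RNA per cell.

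Inducible heat shock genes showed how Myc 1 bore on single lists. Of 15 tested none was called with all libraries, or 6 higher in hop without Myc 1. In that fit 1390 of all 13007 genes tested were called higher. *DnaJ-1*, a co-chaperone gene, had 1114, 1280 and 1472 CPM in hop, and 1193, 544 and 384 CPM in Myc (adjusted p = 0.077, or 4.0e-06 without Myc 1). *Hsp68* had 683, 934 and 708 CPM in hop, and 641, 267 and 101 CPM in Myc (adjusted p = 0.10, or 9.1e-05 without Myc 1). Myc 1 lay within the range of the hop libraries for *DnaJ-1* and just below it for *Hsp68*.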

How the data were processed

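RNA was sequenced from GFP-positive wing disc cells of 3 genotypes with 3 libraries each. The authors aligned reads to dm6 with STAR, removed duplicates with Picard and counted reads on exons with HTSeq, and the deposited raw table holds these counts. What versions they ran, and whether counting used strand, is not given in the sources used here, and labels and methods disagree on whether RNA was polyadenylated or total and on the eye-color allele. The deposited signal values of the normalized table are counts that the authors divided by size factors, and 100% of them gave whole reads within 0.02 when multiplied back. The count test on these reads, as an alternative, called 320 genes higher and 347 lower in hop.

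Raw counts were filtered with filterByExpr, scaled by TMM and given to edgeR 4.0.16 for its quasi-likelihood test (R 4.3.3, limma 3.58.1, DESeq2 1.42.0 for alternatives), with a single fit of all 9 libraries that left 6 residual degrees of freedom, and p-values were adjusted by Benjamini-Hochberg over 12741 genes. An exact permutation of 3 against 3 libraries has 0.1 as its smallest p and was not run. Reads carry no molecular identifiers, so the floor of 3 counts covers counting error only. On simulated counts for hop against Myc, 12474 genes were tested. Recovery was 6 of 67 genes at a true change of 1.5-fold, 31 of 67 at 2-fold and 55 of 66 at 4-fold, and 3 calls were false. The simulated libraries were drawn independently around the same gene means, and none stood apart as Myc 1 did. The simulation therefore cannot give the share of false calls in the real comparison.

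The members, the gene lists and the tests were chosen with earlier results of these data known. Named genes are, among those past both thresholds, without overlap and with at least 5 CPM in the higher group, those with the 12 largest increases and 12 largest decreases, the 10 smallest p in each direction, *hop*, *dm*, *SK* and *dpn*, up to 4 called members of each list (up to 2 for gene families), genes absent from 1 genotype and with at least 10 counts in each library of the other, and genes in the study's tables. Other genes named (pathway members that were not called, neighbors on the chromosome, and *DnaJ-1* and *Hsp68*) were chosen after their values were seen. Of the raw table's symbols, 11947 matched the BDGP6 annotation as they stand, 4223 as synonyms and 322 not at all. Each library was left out in turn. No sequences were used.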

Additional observations from a re-analysis of the deposited data

Results flagged for a closer look

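A signal appeared in the normalized table that the raw table, and so the comparison above, does not hold. *CR46123*, a noncoding RNA gene on 3R (1366234 to 1366601), is listed there with 76, 45 and 74 reads in hop 1 to hop 3 and 0 in every Myc and gfp library. With 3 reads over the Myc libraries as the floor, the level in hop was at least 62.2-fold higher. The study already names *CR46123* among the genes raised in STAT supercompetitors against the control. Of 291 symbols tested that only the normalized table holds, 15 (5.15%) were called in hop against Myc in the fit of recovered reads, where 5.87% of all 12951 symbols were, and *CR46123* was the only 1 of them absent from all libraries of a genotype.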

How the results depend on the processing

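The numbers of genes called higher and lower were 333 and 373. They were 489 and 521 with DESeq2, 390 and 284 with limma-voom, 767 and 571 with limma-voom and quality weights, 352 and 350 with RLE normalization, 313 and 424 with upper quartile normalization, 378 and 393 with no filter, 291 and 371 when every library had to hold 10 counts, 33 and 25 with glmTreat against a fold change of 1.5, 147 and 119 with only the 6 hop and Myc libraries, 323 and 360 with a robust fit (chosen after seeing the data), 179 and 242 at a fold change of at least 2, and 425 and 413 at the adjusted p alone. With a library left out they ranged over 120 to 1232 higher and 100 to 1022 lower, the largest without Myc 1 and the smallest without Myc 2 or Myc 3. With the replicate number as a block, calls were 749 and 654, of which 333 and 372 were among those of the full fit. Deviations of same-numbered hop and Myc libraries from their group means correlated at 0.095, 0.18 and -0.14, and not every library correlated best with its own number. The gfp libraries were not included, and deviations within a group constrain each other. These correlations therefore cannot decide whether same-numbered libraries were handled together. The share of higher calls was 47.2%, against 57.9% with limma-voom, 57.3% with quality weights, 59.0% without Myc 2, 61.7% without hop 2 and 56.9% with glmTreat. The cause of these shifts was not tested. Among uncalled genes, the log2 fold change of *Stat92E* turned to -0.0059 when every library had to hold 10 counts and -0.0074 with upper quartile normalization, and that of *spz4* to -0.024 with quality weights. With a library left out it ranged over -0.023 to 0.14 for *Stat92E*, -0.016 to 0.20 for *mld*, -0.51 to 0.21 for *spz*, -0.17 to 0.69 for *spz4* and -0.0062 to 0.37 for *trh*.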

Other observations

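Further symbols that only the normalized table holds differed in the same fit of recovered reads. *CG41520* had 243, 277 and 312 reads in hop, 54, 44 and 57 in Myc and 189, 157 and 264 in gfp, so that Myc lay below the others (hop against Myc, log2 2.41, edgeR adjusted p = 2.8e-05). *CR45922*, a noncoding RNA, had 230, 90 and 153 reads in hop, 12, 14 and 33 in Myc and 13, 14 and 24 in gfp (log2 3.02, adjusted p = 0.00077). Other symbols were lower in hop, among them several of ribosomal RNA. Of these, *pre-rRNA-Psi:CR45856* had 7616, 8013 and 8514 reads in hop, 12018, 13619 and 18033 in Myc and 8568, 8891 and 7330 in gfp (log2 -0.86, adjusted p = 0.0039). Left-out libraries were not run for these rows.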
